A study of Mus musculus with 15 samples.

Results

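The genes described here encode chains of cytokine receptors. Among them are those for interleukin-4 and interleukin-21, which follicular helper T cells deliver to germinal centre B cells. They were chosen by name, with earlier results of these data known. The 9 listed were Il4ra, Il21r, Il2rg, Il6st, Il10ra, Il13ra1, Ifngr1, Il9r and Il27ra. Of these, 8 had a probe set that names no other gene, 1 each, among the 19938 genes analysed. Il2rg, the common gamma chain, is not analysed here. Expression was measured on whole-transcript microarrays, 1 sample per array, in germinal centre B cells sorted from spleens of female mice 10 days after immunization. All groups came from SwHEL B cells, which carry a transgenic receptor for hen egg lysozyme and the CD45.1 marker. The cells had been transferred into C57BL/6J hosts, which were then immunized with sheep red blood cells bearing the lysozyme mutant HEL3x. The sorted cells were CD45.1+, CD45.2-, IgG1+ and CD38 low, and the age of the mice is not given in the sources used here.

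There were 3 arrays of light zone cells of high affinity (Lzhi), 4 of light zone cells of low affinity (Lzlo), 4 of dark zone cells of high affinity (Dzhi) and 4 of dark zone cells of low affinity (Dzlo). Light zone cells were sorted as CD86 high and CXCR4 low, and dark zone cells as the opposite. The labels do not say whether the samples of a group came from separate mice, so each p-value reflects only how far these samples scatter. Each sample also carries an experiment code, here A to D, whose meaning the labels do not give. Codes A, B and C each occur in all 4 groups, and code D in all but Lzhi. Code B is written in 1 form for the dark zone and in another for the light zone, and these forms were merged unless stated.

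In the germinal centre, B cells mutate and divide in the dark zone and meet antigen and follicular helper T cells in the light zone. Helper cells deliver interleukin-4 (IL-4) and interleukin-21 (IL-21) to B cells across the contact. IL-4 binds a receptor built of the Il4ra chain with either the common gamma chain or the Il13ra1 chain, and signals mainly through STAT6. IL-21 binds Il21r with the common gamma chain and signals mainly through STAT3, and Il9r pairs with the same common chain for interleukin-9. Il6st encodes gp130, shared by the receptors of interleukin-6 and, with Il27ra, of interleukin-27. Il10ra binds interleukin-10 and works with Il10rb. Ifngr1 binds interferon-gamma and works with Ifngr2.

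Il4ra and Il21r lie next to each other on chromosome 7, with 0 genes between them in the RefSeq gene table. Their levels ran together over the arrays, and a link of this to their position was not tested. The promoters of both, and of the 2 interferon-gamma receptor chains, are shown because Il4ra and Il21r bind the helper cytokines IL-4 and IL-21, Ifngr1 had the smallest unadjusted p between zones of the receptor genes, and Ifngr2 was the partner chain that passed. Each is the 250 bases before the RefSeq start in GRCm38.p6, on the plus strand: chr7:125552021-125552270 for Il4ra, chr7:125603179-125603428 for Il21r, chr10:19591699-19591948 for Ifngr1 and chr16:91546809-91547058 for Ifngr2. Capitals mark GGGCGG or its reverse complement CCGCCC (a GC box), TTC and GAA set 3 or 4 bases apart (the STAT palindrome), and ATGNAAAT, a loose form of the octamer element ATGCAAAT bound by Oct factors. ATGNAAAT was added to the search after the Il4ra sequence had been seen. All were searched on both strands.
Il4ra: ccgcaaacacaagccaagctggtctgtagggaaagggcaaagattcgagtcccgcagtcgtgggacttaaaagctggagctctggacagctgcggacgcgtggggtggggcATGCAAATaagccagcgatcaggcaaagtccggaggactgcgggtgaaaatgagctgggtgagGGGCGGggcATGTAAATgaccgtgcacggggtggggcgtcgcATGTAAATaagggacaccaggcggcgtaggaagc
Il21r: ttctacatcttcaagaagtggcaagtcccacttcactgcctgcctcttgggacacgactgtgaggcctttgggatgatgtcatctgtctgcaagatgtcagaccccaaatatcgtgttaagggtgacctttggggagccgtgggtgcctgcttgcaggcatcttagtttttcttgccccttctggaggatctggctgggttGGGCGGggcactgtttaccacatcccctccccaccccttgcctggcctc
Ifngr1: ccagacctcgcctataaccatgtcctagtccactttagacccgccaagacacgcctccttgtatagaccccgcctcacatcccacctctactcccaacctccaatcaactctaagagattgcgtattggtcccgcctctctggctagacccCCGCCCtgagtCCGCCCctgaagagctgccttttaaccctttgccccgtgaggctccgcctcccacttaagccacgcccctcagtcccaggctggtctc
Ifngr2: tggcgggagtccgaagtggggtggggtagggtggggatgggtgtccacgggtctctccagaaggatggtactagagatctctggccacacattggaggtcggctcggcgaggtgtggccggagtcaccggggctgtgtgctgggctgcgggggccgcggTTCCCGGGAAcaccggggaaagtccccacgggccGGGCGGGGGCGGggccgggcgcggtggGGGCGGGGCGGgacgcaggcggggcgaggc

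The Il4ra window held 3 matches to ATGNAAAT, beginning 139, 67 and 34 bases before the start, and 1 GC box. Of 32851 promoter windows of the same length, 5.03% held ATGNAAAT on either strand and 12, or 0.0365%, held it 3 or more times. Il21r held 1 GC box, Ifngr1 held 2 and Ifngr2 held 4, of which some overlap, and 32.7% of all windows hold one. The STAT palindrome with 3 bases between its arms was in none of these windows (7.02% of all windows hold it). Ifngr2 held the one with 4 bases, the spacing that STAT6 prefers, once, as TTCCCGGGAA (5.85% of all windows). TATAAA, also searched, was in none of the 4, against 12.4% of all windows. These matches describe the letters only. Of the 9 listed genes, 7 have a window in the table, and Il10ra and Il27ra do not.

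Markers of germinal centre B cells were present. All 10 of the 13 germinal centre B cell markers that were measured lay above the array's median gene on every array, and their mean level was between 10.10 and 10.55 log2 units. Lzlo replicate 3 stood apart. Its mean over 14 neutrophil markers was 2.99 log2 units above the median of the arrays, that over 13 T cell markers 1.37, that over 8 NK cell markers 1.43 and that over 12 myeloid markers 1.00. Dzlo replicate 3, of the same code D, was 1.63 above for neutrophil markers. The zone differences of the receptor genes, and some of their affinity differences, are therefore also given without these 2 arrays. Lzlo replicate 4, of code C, was 0.69 above for T cell markers, where Dzlo replicate 3 was 0.44 above. It stays in those values, which therefore do not remove all arrays with raised markers of other cells.

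Each receptor gene's level was set only against the array's median gene, since each probe set has its own response. Il4ra, Il21r, Ifngr1 and Il9r lay above the array's median gene on all 15 arrays, Il10ra on 14, Il6st on 12, Il27ra on 5 and Il13ra1 on 0. The array medians were between 5.57 and 5.74. Il13ra1, which would replace the common chain in the second kind of IL-4 receptor, stayed between 4.38 and 4.93 on every array. Il4ra spread most within its groups, with a pooled SD of 0.57 log2 units, followed by Il10ra with 0.45 and Il21r with 0.43. The pooled SD was 0.20 for Il13ra1, against an SD of 0.20 over all 15 arrays.

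**Figure D1:**
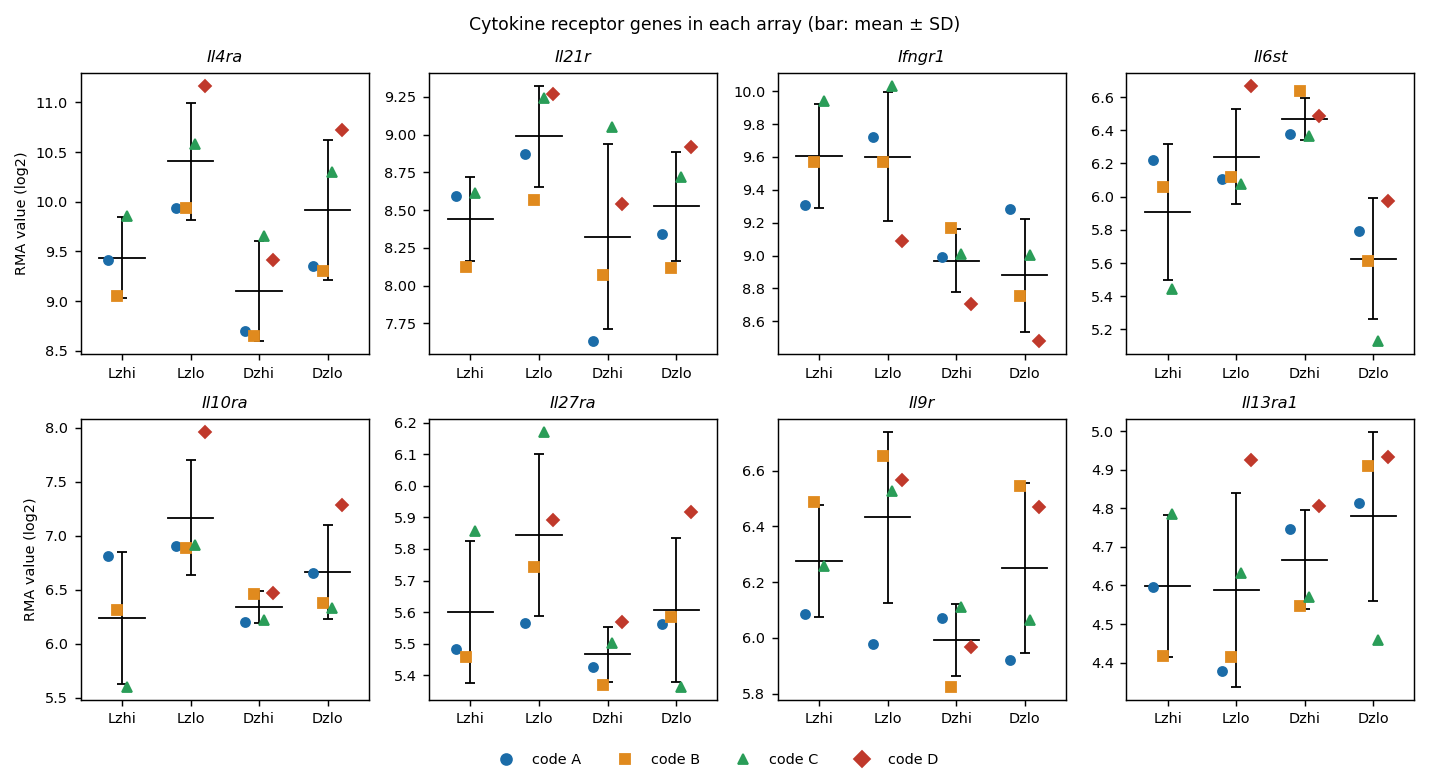
RMA values on the log2 scale (vertical axes, a separate scale per gene) of the 8 measured receptor genes in each array. Points are arrays, their colour and shape give the experiment code, and bars are the group mean ± SD (n = 3 for Lzhi and 4 for the other groups). Il4ra is, on average, highest in Lzlo and lowest in Dzhi, and within each group its code A and B points lie below its code C and D points.

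In the main fit, which has no block for the experiment code, no receptor gene passed in any of the 7 comparisons. The threshold was an adjusted p of 0.05 (limma, Benjamini-Hochberg over 19938 genes). Between the zones over both affinities 0 of 8 passed, against 31 of all genes (17 higher and 14 lower in the light zone), or 0.155%. Lzhi against Dzhi gave 0 of 8, where 0.015% of all genes passed, and Lzlo against Dzlo gave 0 of 8, where 0.01% did. Lzhi against Lzlo, Dzhi against Dzlo, high against low affinity over both zones and the interaction of zone and affinity each gave 0 receptor genes and 0 genes in all, or 0%. At an unadjusted p under 0.05, 1 receptor gene differed between zones (873 genes, or 4.38%, did) and 1 for the interaction (266 genes, 1.33%). There were 2 each for Lzhi against Dzhi (559 genes, 2.8%), Lzlo against Dzlo (703 genes, 3.53%) and Lzhi against Lzlo (797 genes, 4%). Dzhi against Dzlo (320 genes, 1.6%) and affinity over both zones (857 genes, 4.3%) also had 2 each. With the code as a block, Ifngr1 passed between zones (limma adjusted p = 0.0481), as did 0.451% of all genes. With the forms of code B kept apart it did not (adjusted p = 0.206).

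As a group, 7 of the 8 lay on the light zone side of 0, with a median difference of 0.22 log2 units, beside a median of -0.01 over all genes and 48% of all genes above 0. The median was 0.13 in high-affinity cells, with 5 above 0 (48.8% of all genes were), and 0.48 in low-affinity cells, with 7 above 0 (48.6%). For high against low affinity the median was -0.29 among light zone and -0.17 among dark zone cells. In each, 2 of 8 lay above 0, beside 49.9% and 50.4% of all genes. These medians carry no test, and the comparisons share arrays. Single arrays moved some of them by more than 1.5 times. The median of Lzlo against Dzlo was 0.24 without Lzlo replicate 3 and 0.31 without Dzlo replicate 2. That of Lzhi against Dzhi was 0.040, 0.068 and 0.23 without Dzhi replicates 1, 2 and 3, and 0.19 and 0.080 without Lzhi replicates 2 and 4. That of Dzhi against Dzlo was -0.065 without Dzlo replicate 3 and -0.11 without Dzhi replicate 2.

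Without the 2 low-affinity arrays of code D, 0 receptor genes passed either. The zone difference was then 0.42 ± 0.24 for Il4ra, 0.31 ± 0.22 for Il21r, 0.25 ± 0.14 for Il9r and 0.23 ± 0.11 for Il27ra. It was 0.17 ± 0.16 for Il10ra, 0.01 ± 0.14 for Il6st and -0.16 ± 0.10 for Il13ra1. For Ifngr1 it was 0.70 ± 0.13 (limma adjusted p = 0.0737). High minus low affinity was -0.26 ± 0.22 for Il21r. It changed sign for Ifngr1, to -0.11 ± 0.13, and for Il13ra1, from -0.05 to 0.03. For the other measured receptor genes it kept its sign.

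Il4ra, the chain that binds IL-4, had the widest range of the genes. It was at 9.41, 9.05 and 9.86 log2 units in Lzhi arrays (replicates 1, 2 and 4) and at 9.94, 9.94, 11.16 and 10.58 in Lzlo arrays (replicates 1 to 4). Dzhi arrays gave 8.70, 8.64, 9.65 and 9.41, and Dzlo arrays 9.35, 9.31, 10.72 and 10.30 (replicates 1 to 4). All Lzhi arrays lay below all Lzlo arrays, as 2.29% of all genes did, while Dzhi and Dzlo overlapped. Ordered by mean, the groups ran Lzlo, Dzlo, Lzhi, Dzhi, and no group differed from the next beyond their spread.

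High-affinity cells were lower in Il4ra by -0.89 ± 0.27 log2 units over both zones (difference ± SE, 0.54 times the low-affinity level), with an unadjusted p of 0.00557 and a limma adjusted p of 0.999. The difference was -0.97 ± 0.40 for Lzhi against Lzlo and -0.82 ± 0.37 for Dzhi against Dzlo, and the interaction was -0.15 ± 0.54. Code D, which has no Lzhi array, includes Lzlo replicate 3, without which the light zone difference was -0.71. The dark zone difference was -0.55 without Dzlo replicate 3, also of code D. The interaction kept its sign in 19 of 27 alternative fits. Between zones the difference was 0.41 ± 0.27 (adjusted p = 1.00).

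Much of the spread of Il4ra followed the experiment code. Arrays of code A deviated from their group means by -0.37 on average and those of code B by -0.48, those of code C by 0.38 and those of code D by 0.62. Set against the array of the same code, the high-affinity array was lower in 7 of 7 pairs, by -1.31 to -0.53, where 0.898% of all genes were lower in every such pair. The light zone array was higher than the dark zone array of its code in 7 of 7 pairs, by 0.20 to 0.71, where 2.06% of all genes were higher in every pair. The 2 zone pairs of code B each set its light zone form against its dark zone form.

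With the code as a block, the affinity difference of Il4ra was -0.79 ± 0.11 (limma adjusted p = 0.0728) and the zone difference 0.52 ± 0.11 (adjusted p = 0.0744). Without the 2 low-affinity arrays of code D, which had the highest neutrophil marker means, the affinity difference was -0.63 ± 0.24 and its adjusted p 0.998. The part of the other cells' RNA in it was not tested beyond that value.

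Il21r, the receptor of IL-21, showed a smaller contrast of the same sign. Its levels were 8.59, 8.12 and 8.62 in Lzhi arrays and 8.87, 8.57, 9.27 and 9.24 in Lzlo arrays. Dzhi arrays had 7.63, 8.07, 9.05 and 8.54, and Dzlo arrays 8.34, 8.12, 8.91 and 8.72. The groups of each comparison overlapped. High minus low affinity was -0.37 ± 0.20 over both zones (unadjusted p = 0.0900, limma adjusted p = 0.999) and -0.55 ± 0.30 in the light zone. There the high-affinity array was lower in 3 of 3 pairs of 1 code, as 12% of all genes were. The zone difference was 0.29 ± 0.20, and the light zone array was higher in 6 of 7 pairs of 1 code.

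Il4ra and Il21r correlated with r = 0.875 over the 15 arrays, and with r = 0.855 once each group's mean was taken off. The arrays share their experiment codes, and both genes were low in codes A and B and high in C and D (Il21r deviated by -0.21, -0.35, 0.34 and 0.30). Among 9432 genes brighter than the median gene, the 3 most like Il4ra by Pearson r were Abi3 (0.940), Man2b1 (0.940) and Ncf1 (0.937). For Il21r they were Prkd2 (0.952), Xpo6 (0.946) and Man2b1 (0.943). With group means taken off, r was between 0.916 and 0.956 for these 6 pairs, so most of it lay in how arrays of 1 group differed. Of the pairs of measured receptor genes, Il4ra and Il21r had the highest r over the arrays. With group means taken off, Il6st and Il10ra, on chromosomes 13 and 9, had a higher one (0.906, against 0.424 over the arrays).

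Ifngr1, the chain that binds interferon-gamma, had the clearest zone difference of the receptor genes. It was at 9.31, 9.57 and 9.94 in Lzhi arrays and at 9.72, 9.57, 9.09 and 10.03 in Lzlo arrays. Dzhi arrays gave 8.99, 9.17, 9.01 and 8.71, and Dzlo arrays 9.28, 8.75, 8.48 and 9.005. All Lzhi arrays lay above all Dzhi arrays, as 1.84% of all genes did, and the low-affinity groups overlapped only through Lzlo replicate 3 at 9.09.

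Light minus dark zone was 0.68 ± 0.16 log2 units for Ifngr1, or 1.60-fold (unadjusted p = 0.000760, limma adjusted p = 0.157). It was 0.64 ± 0.23 in high-affinity and 0.72 ± 0.21 in low-affinity cells, and the affinity difference over both zones was 0.05 ± 0.16. The light zone array was the higher one in 7 of 7 pairs of 1 code, by 0.31 to 1.03, as in 2.06% of all genes. With the code as a block the zone difference was 0.61 ± 0.12 and passed, at a limma adjusted p of 0.0481. It did not pass with the forms of code B kept apart, at an adjusted p of 0.206. The genes most like it over the 15 arrays were Rab30 (r = 0.909), Bcl2a1c (0.906) and Gimap4 (0.879).

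Ifngr2, the partner chain without which the receptor does not signal, was in the list of other receptor chains and rose in the light zone. It was at 8.10, 7.98 and 8.59 in Lzhi arrays and at 8.59, 8.11, 8.31 and 8.91 in Lzlo arrays. Dzhi arrays had 7.25, 7.42, 7.34 and 7.17, and Dzlo arrays 7.67, 7.44, 7.36 and 8.04. Within each affinity the light zone arrays lay above the dark zone arrays without overlap. Of all genes, 1.84% did so in high-affinity and 0.988% in low-affinity cells. The difference was 0.89 ± 0.14 log2 units (1.85-fold, limma adjusted p = 0.0232), and 0.86 ± 0.10 with the code as a block (adjusted p = 0.00309). Without the 2 low-affinity arrays of code D it was 0.87 ± 0.15 and passed (adjusted p = 0.0465), and without all 3 arrays of code D it was 0.85 ± 0.16 and did not (adjusted p = 0.0788). Leaving out any of 6 single arrays also raised the adjusted p above the threshold, to between 0.0551 and 0.0622.

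**Figure D2:**
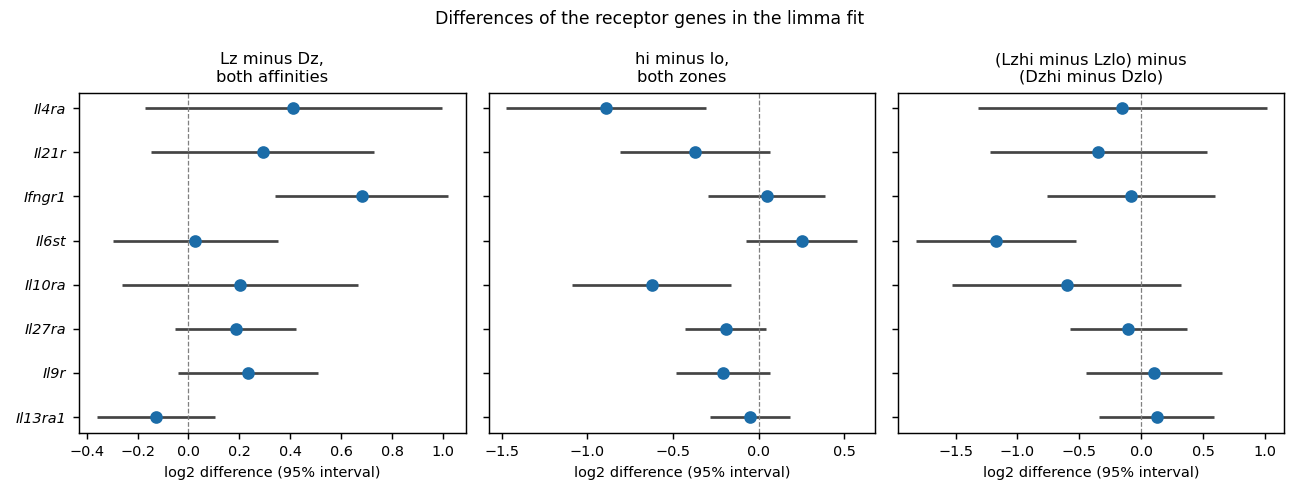
Differences of the 8 measured receptor genes in the limma fit without a block (points, log2 units, horizontal axes) with 95% intervals (lines, not adjusted over genes), for light minus dark zone, high minus low affinity and the interaction. The interval of Ifngr1 lies above 0 between zones, those of Il4ra and Il10ra lie below 0 for affinity, and that of Il6st lies below 0 for the interaction, and 0 of them passed after adjustment over all genes.

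Il6st, the gp130 signal chain, had zone differences of opposite sign in high- and low-affinity cells. It was at 6.22, 6.06 and 5.44 in Lzhi arrays and at 6.10, 6.12, 6.67 and 6.08 in Lzlo arrays. The Dzhi arrays lay close together at 6.38, 6.64, 6.37 and 6.48, and the Dzlo arrays were at 5.80, 5.61, 5.97 and 5.13. All Lzhi arrays lay below all Dzhi arrays (1.85% of all genes did), and all Lzlo arrays lay above all Dzlo arrays (0.988%). All Dzhi arrays also lay above all Dzlo arrays (0.632%).

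The zone difference of Il6st was -0.56 ± 0.22 in high-affinity cells (unadjusted p = 0.0243, limma adjusted p = 0.999) and 0.61 ± 0.21 in low-affinity cells (unadjusted p = 0.00973, adjusted p = 0.929). High minus low affinity was 0.84 ± 0.21 in the dark zone (1.79-fold, unadjusted p = 0.00113, adjusted p = 1.00) and -0.34 ± 0.22 in the light zone. Without Lzhi replicate 4 the zone difference in high-affinity cells was -0.33 and the light zone affinity difference -0.10. The light zone affinity difference was -0.19 without Lzlo replicate 3. The test of the difference between these effects, the interaction, gave -1.18 ± 0.30 (unadjusted p = 0.00167, adjusted p = 1.00). It was -0.94 without Lzhi replicate 4. Over both affinities the zones differed by 0.03 ± 0.15.

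In pairs of 1 code, Il6st was lower in Lzhi than in Dzhi in 3 of 3 (10.1% of all genes were) and higher in Lzlo than in Dzlo in 4 of 4 (8.53%). Dzhi was higher than Dzlo in 4 of 4 pairs, by 0.51 to 1.24 (3.94%). The full pattern, with the zone difference opposite in sign in every pair of the high- and of the low-affinity cells, held for 202 genes, or 1.01%. With the code as a block the interaction was -1.09 ± 0.23 (adjusted p = 1.00). Without the 2 low-affinity arrays of code D it was -1.15 ± 0.28, and the dark zone affinity difference was 0.95 ± 0.19 (adjusted p = 1.00 for both).

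**Figure D3:**
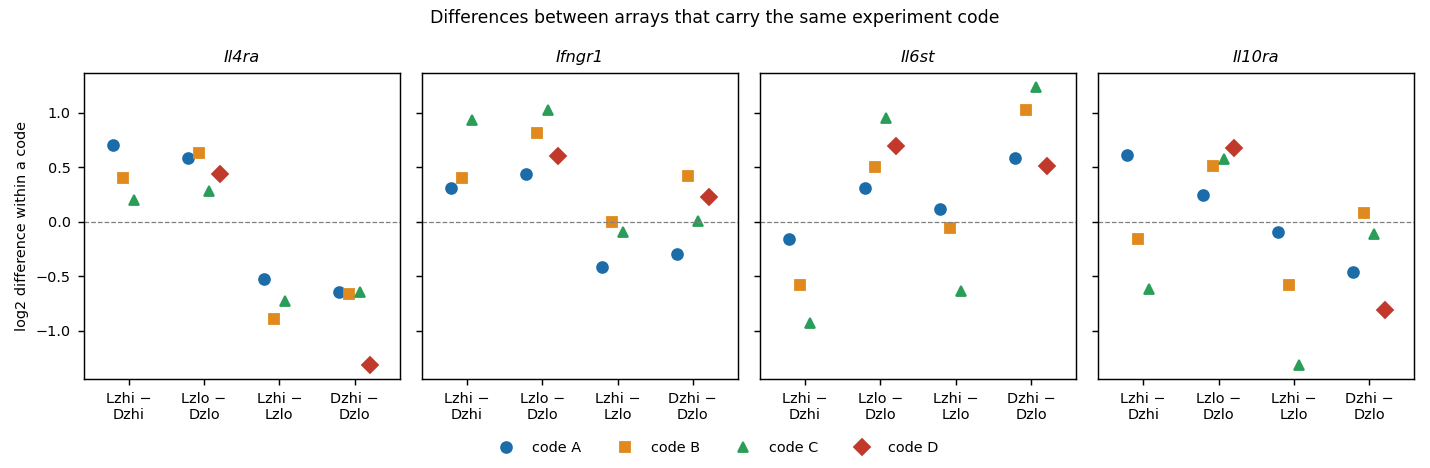
Differences (vertical axis, log2 units, 1 scale for all panels) between arrays of the same experiment code for Il4ra, Ifngr1, Il6st and Il10ra, in the 4 comparisons of neighbouring groups (horizontal axis). Each point is 1 code, and code D has no Lzhi array. All points of Il4ra lie above 0 between zones and below 0 for affinity, while those of Il6st lie below 0 for Lzhi minus Dzhi and above 0 for Lzlo minus Dzlo.

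Il6ra, which lends gp130 its specificity for interleukin-6, differed by -0.12 ± 0.13 between zones. The genes most like Il6st over the arrays were Vkorc1 (r = 0.776), Synj1 (0.773) and Zmynd11 (0.772). Without the 2 arrays farthest from its median these were 0.678, 0.624 and 0.572. Being the highest of 9432 candidates, they were not tested against chance. Il27ra, which joins gp130 in the receptor for interleukin-27, had zone differences of 1 sign, 0.13 ± 0.16 in high- and 0.24 ± 0.15 in low-affinity cells. Its levels were between 5.46 and 5.86 in Lzhi, 5.56 and 6.17 in Lzlo, 5.37 and 5.57 in Dzhi, and 5.36 and 5.92 in Dzlo. The zone difference of Il27ra was 0.19 ± 0.11 and its interaction -0.10 ± 0.22. Its closest genes were Snhg15 (r = 0.878), Endov (0.844) and Tbc1d22b (0.843), or 0.779, 0.690 and 0.692 without the 2 arrays farthest from its median.

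Il10ra, the chain that binds interleukin-10, was highest in Lzlo. It was at 6.82, 6.31 and 5.60 in Lzhi arrays and at 6.91, 6.89, 7.96 and 6.92 in Lzlo arrays. Dzhi arrays were at 6.20, 6.47, 6.22 and 6.48, and Dzlo arrays at 6.66, 6.38, 7.29 and 6.33. All Lzhi arrays lay below all Lzlo arrays, as in 2.29% of all genes. The top value of each low-affinity group, 7.96 and 7.29, was the code D array with the high neutrophil marker level, and in RNA of a whole sample more cells of a type and more RNA per cell cannot be told apart.

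High minus low affinity was -0.63 ± 0.22 for Il10ra over both zones (0.65 times the low-affinity level, unadjusted p = 0.0117, limma adjusted p = 0.999) and -0.93 ± 0.32 in the light zone (unadjusted p = 0.0111, adjusted p = 1.00). Without the 2 low-affinity arrays of code D, the difference was -0.39 ± 0.16 over both zones and -0.66 ± 0.24 in the light zone. Without Lzhi replicate 4 the light zone difference was -0.61. The zone difference of Il10ra was -0.10 ± 0.32 in high-affinity and 0.50 ± 0.29 in low-affinity cells, also of opposite sign, with an interaction of -0.60 ± 0.43 (unadjusted p = 0.184). Without Lzhi replicate 4 the zone difference in high-affinity cells was 0.22, and without Lzlo replicate 3 that in low-affinity cells was 0.24. In 3 of 3 pairs of 1 code the Lzhi array was lower than the Lzlo array, by -1.31 to -0.09, as in 12% of all genes. For Il10rb, the partner chain, high minus low was 0.12 ± 0.10, and Lzhi minus Dzhi 0.51 ± 0.14 (unadjusted p = 0.00323, adjusted p = 0.999). Il10rb was dim, at 5.12 to 5.96 over the arrays, near the array medians of 5.57 to 5.74. The genes most like Il10ra were Carmil2 (r = 0.923), Hsd11b1 (0.916) and Clk3 (0.910), and without the 2 arrays farthest from its median the last 2 had r of 0.730 and 0.764.

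Il9r and Il13ra1 varied little. Il9r, the chain for interleukin-9, lay between 6.09 and 6.49 in Lzhi, 5.98 and 6.65 in Lzlo, 5.82 and 6.11 in Dzhi, and 5.92 and 6.54 in Dzlo. Its zone difference was 0.23 ± 0.13 (limma adjusted p = 1.00), and the light zone array was higher in 7 of 7 pairs of 1 code, though by as little as 0.01 and at most by 0.66. Of all genes, 2.06% were higher in every such pair. The zone difference of Il13ra1 was -0.13 ± 0.11, with an interval from -0.36 to 0.10 log2 units, and it was the 1 receptor gene below 0 between zones. The genes most like Il9r were Nrn1l (r = 0.806), Cnih2 (0.789) and Gpr62 (0.788), and those most like Il13ra1 were Faap100 (0.820), Kcnc4 (0.806) and Tmem145 (0.799).

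Of the 28 other chains of this receptor superfamily that were listed, 27 were measured. Ifngr2 was the 1 that passed between zones, 17 lay above 0, and the median was 0.05 log2 units. Il2rb, a further partner of the common gamma chain, differed by 0.06 ± 0.35, or by -0.18 without Lzlo replicate 3. It was highest in arrays with raised T cell markers, Lzlo replicate 3 (7.78), Dzlo replicate 3 (6.99) and Lzlo replicate 4 (6.75). Elsewhere it was at most 6.19. The part of other cells' RNA in this was not tested. Among the kinases that these chains carry, 3 of 4 were measured (Jak3, the partner of the common gamma chain, is not analysed here) and 0 passed. Jak1, which most of these receptors use, differed by 0.04 ± 0.14 and Jak2 by 0.31 ± 0.30. Of the 6 STAT factors measured, 0 passed. Stat3 was at 0.29 ± 0.11 between zones (unadjusted p = 0.0195, limma adjusted p = 0.827) and Stat6 at 0.33 ± 0.16 (adjusted p = 1.00).

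The 18 listed inhibitors of the pathway were all measured, and 13 lay above 0 between zones, with a median of 0.11 and 0 calls. The largest t values were those of Ptpn6, the phosphatase SHP-1, at 0.41 ± 0.10 (limma adjusted p = 0.240), and Ptpn1 at 0.35 ± 0.14 (adjusted p = 0.946). For affinity over both zones, none of the other chains, kinases, STAT factors or inhibitors passed either. Of the cytokines themselves, 10 were measured, 0 passed in any comparison and 7 stayed below the array's median gene on all arrays. Ebi3, a subunit of interleukin-27, was at 0.44 ± 0.16 between zones (adjusted p = 0.736).

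Among genes known to respond to these cytokines, 2 of 8 measured IL-4 and STAT6 targets passed between zones, both higher in the light zone. Of all genes, 0.155% passed. Of the 8 targets, 6 lay above 0, beside 48% of all genes, with a list median of 0.15. On every array, 4 of the 8 lay below the array's median gene. Fcer2a, the low-affinity IgE receptor CD23, was at 10.19, 10.02 and 10.17 in Lzhi arrays and 10.91, 10.81, 10.35 and 11.06 in Lzlo arrays. It was at 7.98, 8.40, 8.44 and 8.26 in Dzhi arrays, against 9.22, 9.23, 8.90 and 9.70 in Dzlo arrays. None of the 4 groups overlapped another, and in 0.0802% of all genes every light zone array lay above every dark zone array. Light minus dark zone was 1.69 ± 0.13 (3.22-fold, limma adjusted p = 9.56e-05), with 1.86 ± 0.19 in high-affinity cells (adjusted p = 0.00348) and 1.52 ± 0.18 in low-affinity cells (adjusted p = 0.0154). The last lost its call without any of 4 single arrays, to an adjusted p of at most 0.0992, and when only the arrays of the 2 groups were fitted.

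For high minus low affinity over both zones, 6 of the 8 measured IL-4 and STAT6 targets lay above 0 and 2 below. For Fcer2a, below 0, the high-affinity array was lower in 7 of 7 pairs of 1 code, as in 0.898% of all genes. Its high minus low affinity difference was -0.82 ± 0.13 (unadjusted p = 2.34e-05, limma adjusted p = 0.348), of the same sign as Il4ra. It passed without the 2 low-affinity arrays of code D, at -0.95 ± 0.11 (adjusted p = 0.0285). With the code as a block it was -0.87 ± 0.10 (adjusted p = 0.0647). Batf, a transcription factor of the AP-1 family that is also on the IL-21 and STAT3 list, rose in the light zone by 0.91 ± 0.14 (1.88-fold, adjusted p = 0.0150), and by 0.90 ± 0.16 without the 2 low-affinity arrays of code D (adjusted p = 0.0481). Its affinity difference was 0.33 ± 0.14, of the opposite sign (unadjusted p = 0.0305, adjusted p = 0.999).

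**Figure D4:**
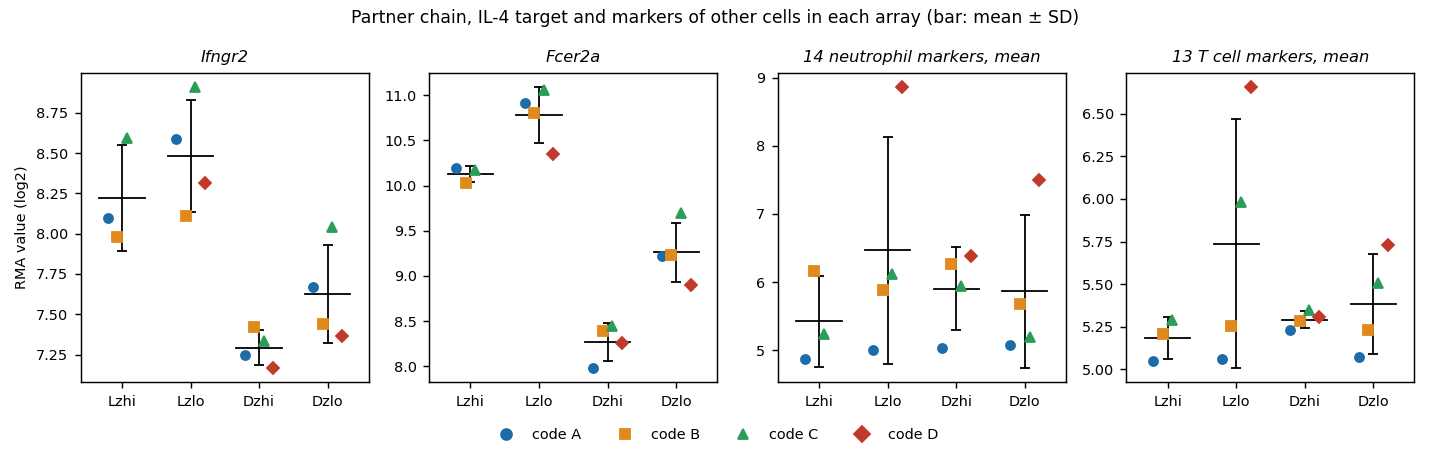
RMA values on the log2 scale (vertical axes, a separate scale per panel) of Ifngr2 and Fcer2a in each array, and the mean over 14 neutrophil and 13 T cell markers. Points are arrays coloured by experiment code, and bars are the group mean ± SD (n = 3 for Lzhi and 4 for the other groups). Light zone arrays lie above dark zone arrays of the same affinity for Ifngr2 and Fcer2a, and 1 Lzlo array of code D stands apart in both marker panels.

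For IL-21 and STAT3 targets, Batf was the 1 of 11 measured genes that passed between zones, 7 lay above 0 and the median was 0.12. Irf4, which drives plasma cell fate, was next by t at 0.74 ± 0.17 (limma adjusted p = 0.165). For affinity 0 of these targets passed, with list medians of 0.03 and 0.00 for the IL-4 and IL-21 lists.

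Marker lists of other B cell states and cell types were measured beside the receptor genes. Of 9 measured naive and memory B cell markers, Nt5e (CD73) fell in the light zone, by 0.92 ± 0.17 on the log2 scale (limma adjusted p = 0.0453), and no other listed marker passed. The list's mean level was 6.30 to 6.49 in Lzhi and 6.60 to 6.90 in Lzlo, groups that did not overlap, as for Il4ra and Il10ra, and 6.37 to 6.60 in Dzhi and 6.39 to 6.60 in Dzlo. Ccr6, a receptor of naive and memory B cells, was lower in high- than in low-affinity cells by -0.44 ± 0.10 (adjusted p = 0.666). The mean of 14 neutrophil markers was 4.86 to 6.17 in Lzhi, 5.01 to 8.86 in Lzlo, 5.03 to 6.38 in Dzhi and 5.08 to 7.50 in Dzlo. That of 13 T cell markers was 5.05 to 5.29 in Lzhi, 5.06 to 6.66 in Lzlo, 5.23 to 5.35 in Dzhi and 5.07 to 5.73 in Dzlo. Of the T cell markers, 2 lay above the array's median gene on all arrays, as did 1 of the neutrophil and 0 of the 8 NK cell markers. Their part in the receptor levels was not tested beyond the values without the code D arrays.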

How the data were processed

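Amplified and labelled RNA was read on whole-transcript arrays, per the labels' protocols. The authors deposited log2 values made with RMA, per the submitters' processing notes, which name build mm8 and give no software version. RMA includes background correction, quantile normalization and a summary over probes, and compresses differences of dim probe sets. Amplification of small samples adds spread, and the number of arrays limits the precision. Of 28853 probe sets, 21789 name 1 gene, 1621 several and 5443 none in the platform annotation. For the 999 genes with several probe sets, only the brightest on average was used, giving 19938 genes, and dim genes were not filtered out. The highest correlation between arrays was 0.993, and none was counted as a repeat.

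Groups and replicate numbers came from the sample titles. Limma 3.58.1 (lmFit and eBayes, R 4.3.3) fitted 4 group means to 15 arrays (11 residual degrees of freedom). Benjamini-Hochberg adjustment ran over all genes within each of 7 comparisons. Adjusted p under 0.05 counts as passing. The experiment codes take 5 forms and were merged into 4. The steps were tested on simulated data. Named genes were every listed receptor, every list gene that passed, the direct partners, up to 2 genes per list by t, and the 3 genes most like each receptor by Pearson r over the arrays. 1 list of cytokine targets is not reported here. Receptors, lists and the lookups were chosen with earlier results of these data known. Promoters are RefSeq windows of GRCm38.p6, which is not the build of the arrays' annotation, and only names and neighbours were otherwise taken from RefSeq. Alternatives concerned blocks, normalization, a filter on dim genes, the choice of probe set, limma's trend and robust options, array weights, left-out arrays and the threshold.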

Additional observations from a re-analysis of the deposited data

Results flagged for a closer look

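Il10ra in Lzlo replicate 3, at 7.96 log2 units, lay far above the other Lzlo arrays, at 6.89 to 6.92. Il6st in the same array, at 6.67, lay far above the other Lzlo arrays, at 6.08 to 6.12. Both are gaps to the nearest other array that exceed Dixon's 95% critical value for 4 samples. Of 24 sets of 4 arrays tested, 2 were so marked, and chance marks about 1 in 20. The array is the one with the highest neutrophil, T cell, NK cell and myeloid marker means, and the part of that RNA in the values of both genes was not tested.

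The zone difference of Il6st differed between high- and low-affinity cells by -1.18 log2 units (interaction, limma unadjusted p = 0.00167, adjusted p = 1.00). The Lzhi array was lower than the Dzhi array in 3 of 3 pairs of 1 code, and the Lzlo array higher than the Dzlo array in 4 of 4. Zone differences so opposed in sign, in either direction, held for 1.01% of all genes. Without Lzlo replicate 3 the interaction was -1.03, and without Lzhi replicate 4 it was -0.94.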

How the results depend on the processing

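The median differences of the 8 receptor genes kept their sign in every alternative run, though some moved by more than 1.5 times without single arrays. The count of receptor genes that passed between zones was 1 in place of 0 with the experiment code as a block (Ifngr1), with quantile normalization applied again (Ifngr1, adjusted p = 0.0440), with array weights (Ifngr1, adjusted p = 0.0320) and with the title's number as a replicate block (Il4ra, adjusted p = 0.0195). For affinity over both zones it was 1 with the replicate block (Il4ra, at -0.77 ± 0.08, adjusted p = 0.0250). In all other alternatives, and without any single array, it was 0 in each comparison. The causes of these gains were not tested. The labels do not say what the titles' numbers mark. Same-numbered arrays of different groups deviated together with a mean correlation of 0.227, and 15 of 21 such pairs were above 0.1, against -0.0615 and 22 of 63 for arrays of different number. Since not every such pair was above 0.1, the numbers were not taken to pair the samples. For arrays of 1 code the mean was 0.288, with 16 of 21 above 0.1, against -0.0820 and 21 of 63 for different codes. The codes thus fail the same rule, in pairs that all include Dzhi replicate 1 or Dzhi replicate 4. The main fit used neither as a block, so its errors include the spread between codes. The pairs of 1 code were described without a test.

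The number of all genes that passed between zones, 31, was 90 with the code as a block, 35 with the forms of code B apart, 83 with the replicate block, 49 with quantile normalization again, 108 with array weights and 18 to 37 without single arrays. It was 49 at an adjusted p under 0.1. For Lzhi against Dzhi, in place of 3, it was 11 with the code as a block, 1 with the forms of code B apart, 7 with the replicate block, 1 with the arrays of these groups alone, 5 with quantile normalization again, 13 with array weights, 5 without the 2 low-affinity arrays of code D, 6 without all 3 arrays of code D, 5 at an adjusted p under 0.1 and 1 to 4 without single arrays. For Lzlo against Dzlo, in place of 2, it was 30 with the code as a block, 11 with the forms of code B apart, 18 with the replicate block, 0 with the arrays of these groups alone, 11 with quantile normalization again, 7 with genes above the median gene, 8 with the mean of a gene's probe sets, 6 with a trended and robust prior, 15 with array weights, 4 without all 3 arrays of code D, 13 at an adjusted p under 0.1 and 0 to 4 without single arrays. For Dzhi against Dzlo it was 1 in place of 0 with quantile normalization again. For affinity over both zones, in place of 0, it was 2 with quantile normalization again and 1 each with the replicate block, with array weights and without the 2 low-affinity arrays of code D. The default fit of array weights did not converge, so they were estimated gene by gene. Ifngr2 lost its call between zones with each array centred on its median (adjusted p = 0.0551), and Batf with the forms of code B apart (0.0594). With the code as a block Ifngr2 also passed for Lzlo against Dzlo (0.0397). Fcer2a passed for affinity over both zones with quantile normalization again (0.00384) and with array weights (0.0108), and for Dzhi against Dzlo with quantile normalization again (0.0358). Other alternatives of the plan were run and left the receptor genes' calls as they were. Background correction could not be varied, since the values were already processed. Dim genes limit what can be seen: Il13ra1 was below the array's median gene on all 15 arrays.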

Other observations

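Of 8 plasma cell markers, 0 passed in any comparison. Their mean level was 7.35 to 7.66 log2 units in Lzhi, 7.08 to 7.48 in Lzlo, 7.69 to 7.90 in Dzhi and 7.34 to 7.68 in Dzlo. Over both zones, 7 of 8 lay above 0 for high minus low affinity, with a median of 0.24, and 1 of 8 lay above 0 between zones, with a median of -0.17. Jchain, the joining chain of secreted polymeric antibody, was at 0.82 ± 0.29 for high minus low affinity (limma unadjusted p = 0.0139, adjusted p = 0.999) and at -1.05 ± 0.29 between zones (adjusted p = 0.350). Prdm1, which represses the B cell program on the way to plasma cells and responds to IL-21, was at 0.26 ± 0.12 for affinity (adjusted p = 0.999), a value picked after it was seen. Bcl6, the master factor of germinal centre B cells, was at -0.32 ± 0.14 for affinity (adjusted p = 0.999).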
